A study of Mus musculus with 9 samples.

Results

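Heat shock chaperones keep proteins soluble and fold them, and this account follows 10 of them by name through macrophages activated with a bacterial product. The 10 genes were listed by symbol, with earlier results of these data known. They are Hspa1a, Hspa1b, Hspa8, Hsph1 and Dnajb1 of the HSP70 machine, and Hsp90aa1 and Hsp90ab1 of the HSP90 machine. The others are Hspd1 and Hspe1 of the mitochondrial matrix, and the transcription factor gene Hsf1. Of the 10, 9 had a row among the 12204 genes of the expression table, and all 9 were among the 12196 genes tested. Hspa1b is not analysed here beyond its promoter sequence.

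HSP70 proteins bind exposed stretches of unfolded protein and release them in a cycle driven by ATP. J-domain proteins such as the Dnajb1 product start that cycle and HSP110 proteins such as the Hsph1 product exchange the nucleotide that ends it. HSP90 proteins act later, on partly folded kinases, receptors and other clients, while HSP60 and HSP10, the products of Hspd1 and Hspe1, form a folding chamber inside mitochondria. HSF1 is the factor that raises transcription of many of these genes after heat or other protein damage. In macrophages HSP90 clients include kinases that act below Toll-like receptors.

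The cells were bone marrow-derived macrophages of C57/Bl6J mice, grown for 6 days with 20% supernatant of L929 cells, which supplies macrophage growth factor. Untreated cells (UT), cells given 10 ng/ml lipopolysaccharide (LPS, a ligand of Toll-like receptor 4) for 4 h, and cells given 50 µM BMS303141 for 1 h before the same LPS treatment (LPS + BMS) had 3 libraries each. BMS303141 inhibits ATP-citrate lyase, and no library with the inhibitor alone and no vehicle is named, so every inhibitor value includes LPS. The labels do not tell separate mice or cultures from repeats, so the p-values measure only how far these libraries differ, in part perhaps for technical reasons.

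Values are log2 CPM, read counts of 3′ ends scaled to each library's total and then quantile-normalised over the 9 libraries. That last step gives all libraries nearly the same distribution of values. Depth was about 1.83 to 5.05 M (mega) reads per library as estimated from the value steps. LPS replicate 1 was the shallowest and stood apart, at -63.1 on the second principal component (9.44% of the variance) against 1.31 and -5.48 for the other LPS libraries. The LPS treatment was visible in each library, with Tnf higher by 6.16 and Il6 by 8.41 on the log2 scale. All 9 macrophage markers listed had rows, of which 7 fell with LPS, from Itgam at -0.37 to Mertk at -4.14, while Cd14 rose by 1.80 and Adgre1, at 7.37, 7.43 and 7.30 log2 CPM in the UT, LPS and LPS + BMS libraries, was not called. In bulk RNA, fewer cells of a type and less RNA per cell cannot be told apart.

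LPS changed 4 of the 9 chaperone transcripts: Hsp90aa1, Hspa8 and Dnajb1 rose by 1.60-, 1.62- and 1.45-fold, and Hsph1 fell by 28.5%. The other 5, Hspe1, Hspd1, Hsp90ab1, Hsf1 and Hspa1a, had higher means with LPS but did not pass the test. The test was limma with Benjamini-Hochberg adjustment over all tested genes, a gene being called at an adjusted p under 0.05. LPS altered 47% of all tested genes by that rule, 21.5% higher and 25.4% lower, so 4 of 9 is near the share in the whole table. Centring on ribosomal protein genes turned that balance, to 2613 genes higher and 2370 lower against 2628 and 3102, and gave 4 chaperones higher and 0 lower. The median difference of the 9 was 0.54 on the log2 scale, against -0.06 over all tested genes. Without LPS replicate 1 the count was 5, since Hsf1 was then called, and without UT replicate 2 it was 2, Hspa8 and Hsp90aa1.

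**Figure D1:**
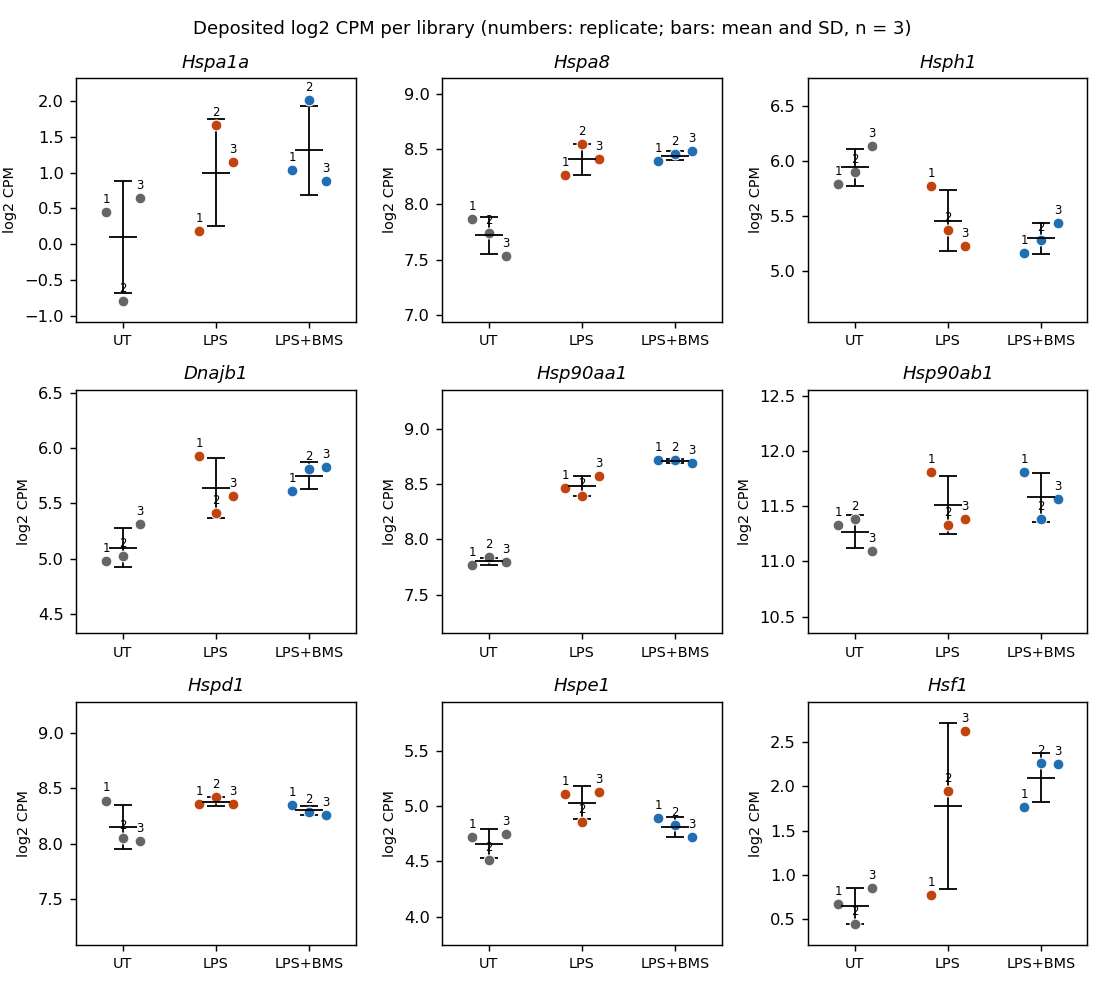
Deposited log2 CPM (y axis, each panel with its own range) of the 9 chaperone transcripts in the UT, LPS and LPS + BMS libraries (x axis); each point is a library numbered by its replicate, and the bars give the mean and SD of 3 libraries. Hsp90aa1 separates the groups with little spread, whereas Hsf1 with LPS runs from 0.77 to 2.63.

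Hspa8 encodes HSC70, the HSP70 protein that cells make all the time, and lies on chromosome 9 from 40800984 to 40810087 on the plus strand of GRCm38. Its log2 CPM was 7.87, 7.74 and 7.53 in the UT libraries, 8.27, 8.55 and 8.41 with LPS, and 8.39, 8.46 and 8.48 with LPS + BMS. All 6 libraries with LPS lay above all 3 untreated ones. LPS raised it by 0.70 (SE 0.11, 95% interval 0.45 to 0.94, limma adjusted p = 0.00021), and it stayed called without any single library, at 0.77 without LPS replicate 1.

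The last 300 bases of the Hspa8 transcript, where reads of these libraries start, have near-identical copies elsewhere in the genome. At 95% identity over at least 100 bases they matched 7 other genes, of which 6 had rows, all processed pseudogenes (Gm15459, Gm6210, Gm7899, Gm8326, Gm8337 and Gm8355). Reads may be divided between Hspa8 and these copies, so the Hspa8 level alone is uncertain. Each of the 6 was called higher with LPS, by 0.45 (Gm15459) to 1.15 (Gm8326) on the log2 scale. The copies together held 63.4% of the summed CPM in untreated cells, 63.6% with LPS and 61.5% with LPS + BMS. Hspa8 alone went from 211 ± 24.6 to 342 ± 33.8 CPM with LPS (SD, n = 3), and the sum with its copies from 576 ± 32.6 to 942 ± 46.8 CPM. The LPS to UT ratio was thus 1.62 for the gene and 1.64 for the sum, and the groups did not overlap in either. The exact two-sided permutation p was 0.1 for both, the smallest that 3 against 3 libraries can give.

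**Figure D2:**
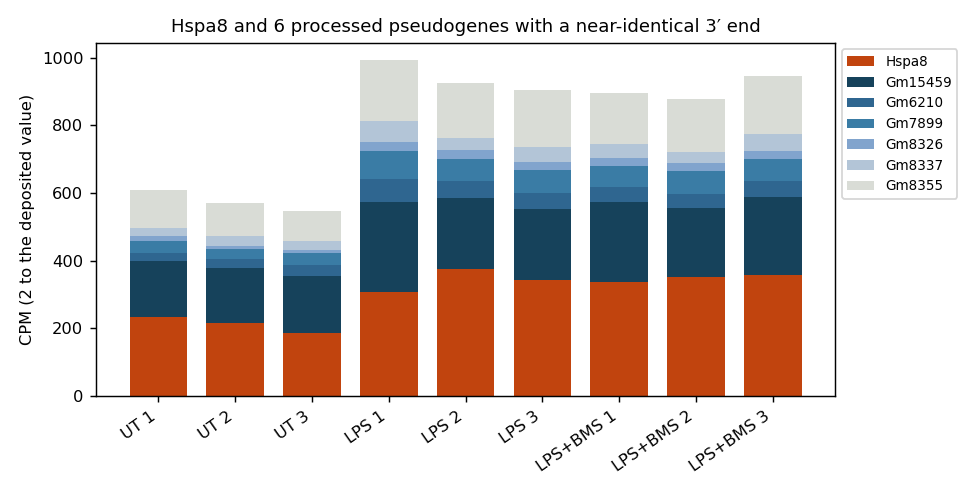
Stacked CPM (y axis, 2 to the power of the deposited value) of Hspa8 and the 6 processed pseudogenes that share its 3′ end, in each of the 9 libraries (x axis). The whole column is lower in the UT libraries (545 to 610 CPM) than in the LPS libraries (905 to 995 CPM), and the copies make up 59.4% to 69.0% of it.

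Hspa1a encodes the HSP70 protein that heat induces, and its single-exon gene lies on chromosome 17 from 34969190 to 34972156 on the minus strand. It was close to the detection limit, with 0.45, -0.79 and 0.64 log2 CPM in the UT libraries, 0.18, 1.66 and 1.15 with LPS, and 1.03, 2.02 and 0.88 with LPS + BMS. The LPS libraries overlapped both other groups, with LPS replicate 1 below 2 of the 3 untreated libraries. The LPS + BMS libraries did not overlap the untreated ones. These values correspond to about 2 to 8 reads in an untreated library, 1 to 8 with LPS and 6 to 14 with LPS + BMS. LPS minus UT was 0.90 (SE 0.56, interval -0.32 to 2.12, limma adjusted p = 0.212), so both no change and a rise lie within the interval. Without LPS replicate 1 it was 1.31 (adjusted p = 0.0744). Its 3′ end and that of Hspa1b did not match at the identity and length used for Hspa8. Shorter or less alike stretches were not counted, so whether reads of the pair can be told apart was not tested.

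Dnajb1, on chromosome 8 from 83608193 to 83612653 (plus strand), encodes HSP40, the J-domain partner that delivers substrates to HSP70. It measured 4.98, 5.02 and 5.31 log2 CPM in the UT libraries, 5.93, 5.41 and 5.57 with LPS, and 5.61, 5.81 and 5.83 with LPS + BMS. The highest untreated value lay just below the lowest LPS value, and LPS replicate 1 was the highest of all 9. The rise was 0.54 (SE 0.16, interval 0.19 to 0.89, limma adjusted p = 0.0145) and 0.39 (adjusted p = 0.0464) without LPS replicate 1. The call ended without UT replicate 1 (adjusted p = 0.0510) or UT replicate 2 (0.0547).

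Hsph1 went the other way. The gene, on chromosome 5 from 149614287 to 149636376 (minus strand), encodes HSP105, an HSP110 protein that serves HSP70 as nucleotide exchange factor. Its log2 CPM was 5.79, 5.90 and 6.13 in the UT libraries, 5.77, 5.37 and 5.23 with LPS, and 5.17, 5.28 and 5.44 with LPS + BMS. The LPS and UT libraries did not overlap, but LPS replicate 1 came within 0.02 of UT replicate 1. The log2 difference was -0.48 (SE 0.16, interval -0.84 to -0.13, limma adjusted p = 0.0274), and -0.64 (adjusted p = 0.00281) without LPS replicate 1. The call ended when libraries were centred on ribosomal protein genes (adjusted p = 0.185), with no mean trend (0.0592), with only the groups compared (0.0503) and without UT replicate 2 (0.0587), UT replicate 3 (0.0995), LPS replicate 2 (0.0766) or LPS replicate 3 (0.121).

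Within a library, a constant shift of all values cancels in the Hspa8 minus Hsph1 difference in log2 CPM, though the level-dependent quantile normalisation does not. It was 2.08, 1.85 and 1.40 in the UT libraries, 2.49, 3.19 and 3.19 with LPS, and 3.23, 3.18 and 3.04 with LPS + BMS. The mean rose from 1.78 ± 0.35 to 2.96 ± 0.40 (SD, n = 3 each) with LPS, without overlap. The exact two-sided permutation p was 0.1, the smallest possible with 3 libraries in each group, and 0.3 after adjustment over 9 such comparisons. With so few libraries no shift, however large, could be called by this test, so it cannot decide whether the difference changed. The pair was chosen with its values known.

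Of the HSP90 genes, Hsp90aa1 rose with LPS and Hsp90ab1 did not pass the test. Hsp90aa1, on chromosome 12 from 110690605 to 110702728 (minus strand), encodes the stress-inducible HSP90 alpha. It measured 7.77, 7.84 and 7.79 log2 CPM in the UT libraries, 8.46, 8.39 and 8.57 with LPS, and 8.72, 8.72 and 8.69 with LPS + BMS. The 3 groups formed steps without overlap, from UT to LPS to LPS + BMS. From UT to LPS the rise was 0.68 (SE 0.09, interval 0.48 to 0.88, limma adjusted p = 4.3e-05), called without any single library and at 0.68 without LPS replicate 1.

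Hsp90ab1, the constitutive HSP90 beta gene on chromosome 17 from 45567775 to 45573271 (minus strand), was the most abundant of the 9 in CPM. Its values were 11.33, 11.38 and 11.09 log2 CPM in the UT libraries, 11.81, 11.33 and 11.38 with LPS, and 11.81, 11.38 and 11.56 with LPS + BMS. The groups overlapped, and LPS replicate 1 was the highest LPS library. The LPS difference was 0.24 (interval -0.07 to 0.55, limma adjusted p = 0.196), and 0.09 (adjusted p = 0.560) without LPS replicate 1.

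Within a library the Hsp90aa1 minus Hsp90ab1 difference in log2 CPM was -3.56, -3.54 and -3.30 in UT cells, -3.34, -2.94 and -2.81 with LPS, and -3.09, -2.66 and -2.87 with LPS + BMS. The LPS + BMS libraries did not overlap the untreated ones, while LPS replicate 1 lay among them. The mean differences were -3.47 ± 0.15, -3.03 ± 0.28 and -2.87 ± 0.22 (SD, n = 3). Exact two-sided permutation tests gave p = 0.2 for LPS against UT, 0.6 for LPS + BMS against LPS and 0.1 for LPS + BMS against UT, or 0.45, 0.771 and 0.3 adjusted over the 9 comparisons.

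Hspd1 and Hspe1 stand head to head on chromosome 1, Hspd1 from 55077835 to 55088243 on the minus strand and Hspe1 from 55088132 to 55091307 on the plus strand. Hspd1, the HSP60 gene, measured 8.39, 8.05 and 8.02 log2 CPM in the UT libraries, 8.36, 8.42 and 8.36 with LPS, and 8.35, 8.29 and 8.26 with LPS + BMS. UT replicate 1 lay among the LPS libraries and the other untreated libraries below them. LPS minus UT was 0.23 (interval -0.01 to 0.46, limma adjusted p = 0.107), and without UT replicate 1 it was 0.34 and called (adjusted p = 0.0166). Hspe1, the HSP10 gene, measured 4.72, 4.51 and 4.75 log2 CPM in the UT libraries, 5.11, 4.86 and 5.13 with LPS, and 4.89, 4.83 and 4.72 with LPS + BMS. The LPS libraries did not overlap the untreated ones. The LPS difference was 0.37 (SE 0.15, interval 0.05 to 0.70, limma adjusted p = 0.0558), and 0.46 and called without LPS replicate 2 (adjusted p = 0.0397).

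The gap within the mitochondrial pair did not differ between groups beyond its spread. Hspd1 exceeded Hspe1 by 3.49 ± 0.20 log2 CPM in UT cells, 3.35 ± 0.18 with LPS and 3.49 ± 0.05 with LPS + BMS (SD, n = 3), and exact two-sided permutation tests between groups gave p = 0.3, 0.4 and 1.0 with a possible minimum of 0.1. The 3′ end of Hspe1 matched 4 other genes at the identity used for Hspa8, and none of those is analysed here. The other chaperone genes, Hspa8 and Hspe1 aside, had no such match, and no gene overlapped the last 300 bases of any of the 10.

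Hsf1, on chromosome 15 from 76477422 to 76501913 (plus strand), had a low transcript level in every group. Its log2 CPM was 0.67, 0.45 and 0.85 in the UT libraries, 0.77, 1.95 and 2.63 with LPS, and 1.77, 2.26 and 2.25 with LPS + BMS. LPS replicate 1 stayed within the untreated range while the other LPS libraries lay above it. The values rest on about 6 to 9 reads in an untreated library, 2 to 18 with LPS and 12 to 17 with LPS + BMS. The LPS difference was 1.13 (SE 0.45, interval 0.16 to 2.10, limma adjusted p = 0.0548), and 1.63 and called (adjusted p = 0.0032) without LPS replicate 1. The low depth of that library moved with this value, and its part in the result was not tested.

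No change of the 9 chaperone transcripts with the inhibitor passed the test when LPS + BMS was compared with LPS. By limma 0 of 9 were called, and 1, Hsp90aa1, had an unadjusted p under 0.05. In counts simulated for this comparison the steps recovered 9 of 70 changes of 1.5-fold, 42 of 70 of 2-fold and 56 of 60 of 4-fold. A small change could therefore be missed. The simulation gave all genes the same spread between libraries and placed the changes on genes of any abundance. Depth aside, it held no library that stood apart, so its rates are not those of the 9 chaperones. Over all tested genes 2.12% were called, 258 in all, of which 117 (0.959%) were higher and 141 (1.16%) lower. That total was 160 without LPS replicate 3 and 79, 143 and 62 without LPS + BMS replicates 1, 2 and 3, while the chaperone count was 0 without any library. Centring on ribosomal protein genes gave 53 higher and 109 lower over all genes. The median difference of the 9 was 0.08 on the log2 scale, against 0 over all tested genes.

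Hsp90aa1 came closest. Its 3 LPS + BMS libraries, at 8.69 to 8.72 log2 CPM, lay above the 3 LPS libraries, at 8.39 to 8.57. The difference was 0.24 (SE 0.09, interval 0.04 to 0.43, unadjusted p = 0.0233, limma adjusted p = 0.246), and 0.23 (adjusted p = 0.283) without LPS replicate 1. The unadjusted intervals of the well-measured transcripts describe these libraries only and set no bound on an effect of the inhibitor. They ran from -0.21 to 0.28 for Hspa8, -0.32 to 0.16 for Hspd1, -0.23 to 0.39 for Hsp90ab1, -0.24 to 0.46 for Dnajb1, -0.51 to 0.19 for Hsph1 and -0.55 to 0.10 for Hspe1, all log2 differences. The intervals of the scarce transcripts were far wider, from -0.91 to 1.53 for Hspa1a and from -0.66 to 1.29 for Hsf1. Without LPS replicate 1, the sign of the difference turned for Hspa1a (-0.095), Hspa8 (-0.0398) and Hsf1 (-0.191).

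**Figure D3:**
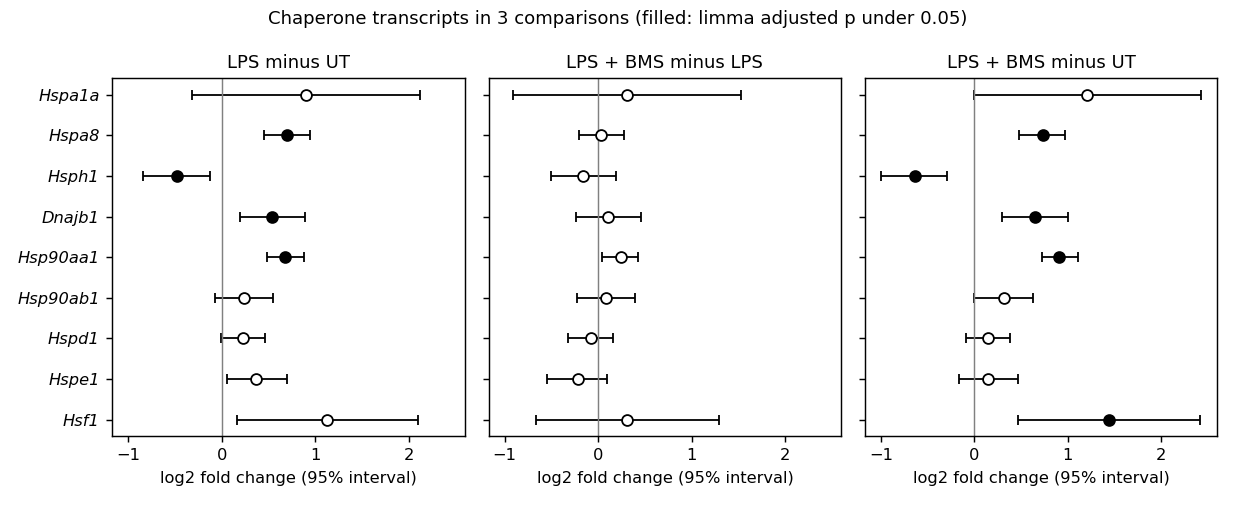
Log2 differences (x axis) of the 9 chaperone transcripts (y axis) in the 3 comparisons, with 95% intervals from limma; filled points have an adjusted p under 0.05. LPS minus UT and LPS + BMS minus UT share the UT libraries, and in LPS + BMS minus LPS every point is open.

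Against untreated cells, LPS + BMS gave 4 higher and 1 lower of the 9 chaperone transcripts, beside 47.1% of all tested genes called, 21.5% higher and 25.6% lower. This comparison shares the UT libraries with LPS minus UT, so the lists are not independent. The limma differences were 0.91 for Hsp90aa1 (SE 0.09, adjusted p = 2.8e-06), 0.73 for Hspa8 (adjusted p = 0.00015), 0.65 for Dnajb1 (adjusted p = 0.0048) and -0.64 for Hsph1 (adjusted p = 0.0057). These 4 were called without any single library. Hsf1, the HSF1 gene, was 1.44 higher (SE 0.45, adjusted p = 0.0181), and its call ended without UT replicate 2 (adjusted p = 0.0579) or LPS + BMS replicates 2 (0.0616) or 3 (0.0589). Hspa1a at 1.21 (adjusted p = 0.0944), Hsp90ab1 at 0.32 (0.0882), Hspd1 at 0.15 (0.292) and Hspe1 at 0.15 (0.437) were not called, though Hsp90ab1 was without LPS replicate 1 (0.0196). The median difference of the 9 was 0.65 on the log2 scale, against -0.05 over all tested genes.

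HSF1 binds heat shock elements, inverted repeats of the unit GAA and its complement TTC spaced by a pair of bases, and the promoters of this family are the textbook case. RefSeq windows of GRCm38.p6, from 250 bases before a start site to 50 after it, matched 6 of the 10 genes: Hspa1a, Hspa1b, Hsph1, Dnajb1, Hspd1 and Hspe1. Each was searched on both strands for 2 units (GAANNTTC or TTCNNGAA), 3 units (GAANNTTCNNGAA or TTCNNGAANNTTC) and 4 units (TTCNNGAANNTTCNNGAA or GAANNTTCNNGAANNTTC), so that a longer match contains the shorter ones. Of the 6 genes 5 had a 2-unit match in at least 1 window, against 17.0% of all genes with windows (15.1% of the 32851 windows). A 3-unit match was held by 3 (Hspd1, Hspe1 and Hsph1), against 0.662% of genes (0.603% of windows). A 4-unit match was held by Hspd1 and Hspe1, against 0.0296% of genes (0.0244% of windows), 8 genes in all. A match describes the letters and not a bound site.

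The heat-inducible Hspa1a carries its match at position -104 from the start site, and the 130 bases upstream of the start (chr17:34972157-34972286, minus strand) are shown because this is the family's classic inducible promoter, with the matched units and the bases between them in capitals.
Hspa1a: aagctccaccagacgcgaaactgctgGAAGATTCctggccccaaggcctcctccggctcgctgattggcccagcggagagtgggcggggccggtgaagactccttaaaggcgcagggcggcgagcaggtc
The Hspa1b window has its match at the same distance and differs from that of Hspa1a at 4 of 300 positions, 1 of them within these 130 bases. Hspa1a itself was not called in any of the 3 comparisons.

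Of 2 annotated Hspd1 start sites, at 55087932 and 55088243, the first lies 215 bases from the Hspe1 start at 55088148, and a single 4-unit element between these serves as the match of both genes. The window of the other Hspd1 start held no match, and the element does not lie between that start and Hspe1. It is shown on each gene's own strand from chr1:55088053-55088082, beginning at position -89 from the Hspe1 start (plus strand) and -144 from the first Hspd1 start (minus strand), with the element in capitals.
Hspe1: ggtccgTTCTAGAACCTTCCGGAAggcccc
Hspd1: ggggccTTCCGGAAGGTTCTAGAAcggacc
These genes, with the longest element of the 6, had log2 differences of 0.37 and 0.23 with LPS, neither called.

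Hsph1, which fell with LPS, has a 2-unit match (chr5:149636351-149636380, minus strand, capitals) at position -33 from its annotated start at 149636336. From its other annotated start, at 149636315, the match lies at -54. Its 3-unit match lies behind both starts. The Hsph1 gene bounds given above include the 2-unit match. Chordc1, which encodes an HSP90 cochaperone, is shown beside Hsph1 as 1 of the 8 genes with a 4-unit match (chr9:18292260-18292289, plus strand), here a run of overlapping elements from position -4.
Hsph1: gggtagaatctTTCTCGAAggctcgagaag
Chordc1: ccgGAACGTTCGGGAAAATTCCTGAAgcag
Chordc1 was 5.57, 5.32 and 4.84 log2 CPM in the UT libraries, 5.77, 5.99 and 5.91 with LPS, and 6.25, 6.05 and 6.02 with LPS + BMS. Its LPS libraries all lay above the untreated ones, and it rose by 0.65 (SE 0.17, limma adjusted p = 0.0073). Dnajb1, which rose with LPS, had no match in either of its windows. Of the tested genes shown with a match, Chordc1 rose, Hsph1 fell, and Hspa1a, Hspd1 and Hspe1 were not called. Of 95 genes with windows in the wider chaperone network described below, 19 had a 2-unit match, against 17.0% of all genes with windows. A 3-unit match was held by 2 of the 95, Chordc1 and Dnajb6, and Dnajb6 rose by 1.14 with LPS. Hspa8 and Hsp90aa1, which rose, had no window to search. A part of the elements in these differences was not tested.

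**Figure D4:**
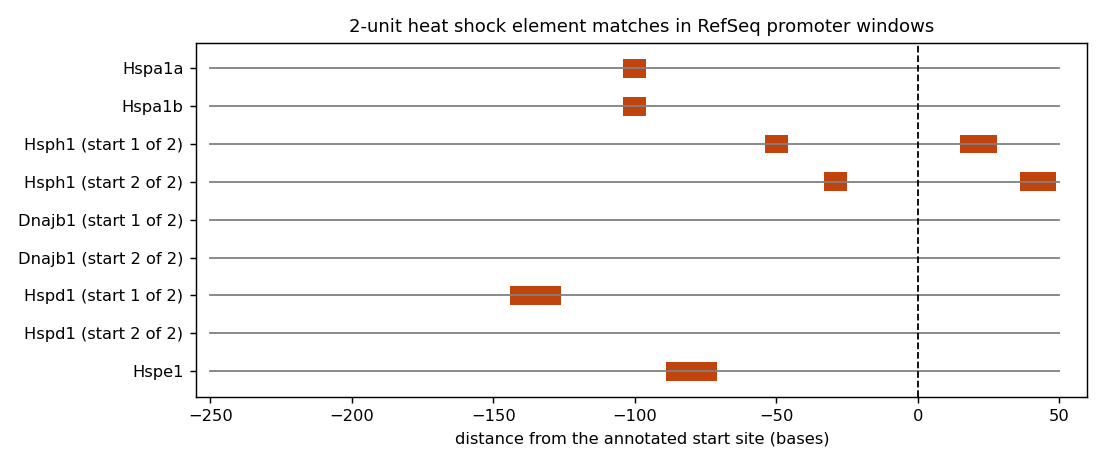
Positions of 2-unit heat shock element matches (boxes; overlapping matches merge) in the RefSeq windows of 6 chaperone genes, one line per annotated start site, with the distance from the start in bases on the x axis and the start at the dashed line. Hspa1a and Hspa1b share the position of their match, and both Dnajb1 windows are empty.

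The wider chaperone network was described through 9 lists holding 117 genes, of which 101 were tested. Some genes stand in more than 1 list, so the tested genes of the lists add to 114. With LPS 26 rose and 22 fell, and the median log2 difference was 0.03 against -0.06 over all tested genes, so the share called is again near the 47% of the table. The counts in each direction varied from list to list. Of 14 subunits of the cytosolic chaperonin TRiC and of prefoldin, which fold actin and tubulin, 9 rose and 2 fell, with a median of 0.47. Of 16 chaperones of the endoplasmic reticulum 1 rose and 8 fell, with a median of -0.40. With ribosomal protein centring 4 of the 16 were lower and 0 higher, and the median was -0.32.

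In the TRiC and prefoldin list, Tcp1, a TRiC subunit, went from 6.41 to 6.51 log2 CPM in UT cells to 7.21 to 7.45 with LPS, a rise of 0.87 (SE 0.11, limma adjusted p = 2.7e-05). Of the other TRiC subunits Cct2, Cct3, Cct4, Cct6a and Cct8 rose, by 0.39 (Cct2) to 0.92 (Cct3), and Cct5 at 0.28 (adjusted p = 0.0661) and Cct7 at 0.16 (0.172) were not called. The prefoldin subunit Pfdn5 fell by 0.72 (SE 0.11, adjusted p = 9.9e-05), from 8.14 to 8.28 log2 CPM down to 7.42 to 7.59. Prefoldin was mixed, since Pfdn2, Pfdn4 and Vbp1 rose by 0.50, 0.64 and 0.90, Pfdn1 fell by 0.36 and Pfdn6 was not called. The call ended for Cct2 without UT replicates 1 or 2 or LPS replicate 2, for Pfdn1 without UT replicate 3 or LPS replicates 2 or 3, and for Vbp1 without any 1 of the 9 libraries other than UT replicate 1 or LPS replicate 1.

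Of 16 HSP90 cochaperones 5 rose with LPS and 1, Fkbp4, fell, beside 21.5% and 25.4% of all tested genes. Stip1 encodes HOP, which passes clients from HSP70 to HSP90, and had the largest rise of the list. It was at 6.74, 6.78 and 7.16 log2 CPM in the UT libraries and 8.67, 8.25 and 8.34 with LPS, a rise of 1.53 (SE 0.14, limma adjusted p = 9.4e-07). The gap between the groups exceeded the spread within either. Ptges3, the p23 gene that stabilises client-bound HSP90, rose by 1.05 (SE 0.11, adjusted p = 5.9e-06). Cacybp rose by 0.48.

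Of 19 J-domain proteins 6 rose and 5 fell with LPS, beside 21.5% and 25.4% of all tested genes. The 6 became 3 without LPS replicate 3. Dnajb6, a J-domain protein that holds back aggregation, rose by 1.14 (SE 0.13, limma adjusted p = 8.4e-06), and Dnajb14, a membrane J-domain protein of the endoplasmic reticulum, fell by 1.27 (SE 0.13, adjusted p = 2.5e-06). Of 14 genes of the HSP70 family and its exchange factors 1 rose, the mitochondrial Hspa9, and 5 fell, or 3 without UT replicate 2 or with ribosomal protein centring. The largest falls were those of Bag4, at -1.42 (SE 0.25, adjusted p = 0.00039), and of Hspa2, at -1.41 (SE 0.31, adjusted p = 0.0021). BAG proteins bind HSP70 and help it release nucleotide, as the Hsph1 product does. Bag1 fell by 0.54 and Bag3 by 0.47, and the Bag3 call ended without UT replicate 2 (adjusted p = 0.0643) and with ribosomal protein centring (0.119).

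Of 15 mitochondrial chaperones and proteases 2 were higher with LPS and 0 lower at adjusted p under 0.05 by limma. Over all tested genes 47% were called. An unadjusted p under 0.05 was reached by 5 of the 15. Hspa9, the mitochondrial HSP70 gene, rose by 0.53 (SE 0.15, adjusted p = 0.0092) and its exchange factor Grpel1 by 0.50 (SE 0.14, adjusted p = 0.0085). Of the heat shock factors and their binding protein, Hsf2 and Hsbp1 were tested and neither was called, at -0.07 and 0.06. Of 9 small heat shock protein genes listed, Hspb11 alone was tested, at -0.13 (adjusted p = 0.855).

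In a list of 17 tested genes known to respond to heat, 11 of which are also in the lists above, 9 rose and 4 fell with LPS. Over all tested genes 21.5% rose and 25.4% fell. The metallothionein gene Mt2, which also answers to metals, rose by 5.22 (SE 0.48, limma adjusted p = 1.0e-06), and LPS replicate 1, at 8.47 log2 CPM, lay below LPS replicates 2 and 3 at 10.32 and 10.27. Without it the rise was 5.83. The fallers were Dnajb4, Dedd2, Fkbp4 and Bag3. In the endoplasmic reticulum list the disulfide isomerase gene Pdia3 fell by 0.74 (SE 0.10, adjusted p = 4.2e-05) and Calr, the calreticulin gene, by 0.81 (SE 0.13, adjusted p = 0.00015). The exception was Hspa5, the BiP gene, which rose by 0.34 (SE 0.10, adjusted p = 0.0164), a call that ended without UT replicate 2 (0.0790) and with the alternatives of ribosomal protein centring or no mean trend.

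**Figure D5:**
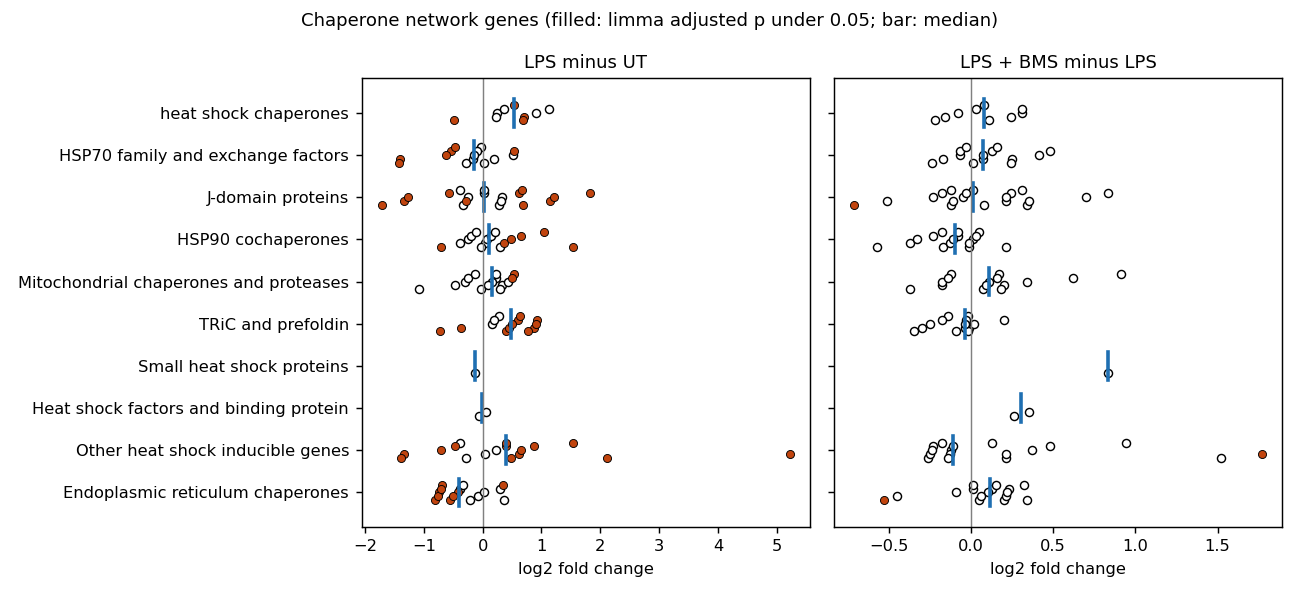
Log2 differences (x axes, separate scales) of the 9 chaperone transcripts and of the 9 network lists (y axis), each point a gene, filled where the limma adjusted p is under 0.05, with the list's median as a bar. With LPS the TRiC and prefoldin median lies at 0.47 and the endoplasmic reticulum median at -0.40, and with LPS + BMS against LPS 3 of the 101 network genes are filled.

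The inhibitor changed 3 of the 101 network genes when LPS + BMS was compared with LPS, beside 2.12% of all tested genes. Hmox1, which encodes heme oxygenase 1 and is induced by heat, heme and oxidative stress, stood at 7.07, 7.35 and 7.49 log2 CPM in UT, 7.81, 7.56 and 7.75 with LPS, and 9.22, 9.49 and 9.71 with LPS + BMS. Only the LPS + BMS libraries exceeded 9. The difference from LPS was 1.77 (SE 0.14, limma adjusted p = 6.5e-05), or 3.41-fold, and it was called without any single library.

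Dnajb6 was at 7.88, 7.46 and 7.46 log2 CPM with LPS and 6.85, 6.91 and 6.91 with LPS + BMS. The LPS + BMS libraries lay below the LPS libraries and above the untreated ones, at 6.34 to 6.53. It fell by 0.71 (SE 0.13, limma adjusted p = 0.0123), and by 0.57 without LPS replicate 1 (adjusted p = 0.0152). The call ended without LPS + BMS replicates 1 (0.0701) or 3 (0.0750), with ribosomal protein centring (0.0597) and with no mean trend (0.0847). Pdia4, a disulfide isomerase gene of the endoplasmic reticulum, fell by 0.53 (SE 0.12, adjusted p = 0.0313). That call ended without UT replicate 2 or any single library of the LPS and LPS + BMS groups, with adjusted p from 0.0543 to 0.148, and also with only the groups compared (0.0561), no mean trend (0.0905) and ribosomal protein centring (0.108). Without LPS + BMS replicates 1 or 3 the network count was 1, Hmox1.

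Against untreated cells, with which LPS minus UT shares its controls, LPS + BMS raised 28 and lowered 20 of the 101 network genes, near the 47.1% called over all tested genes (21.5% higher, 25.6% lower). Stip1 was higher by 1.30, Ptges3 by 0.88, Tcp1 by 0.73 and Hspa9 by 0.60. Dnajc21, a J-domain protein of ribosome assembly, was higher by 1.56 and Mt2 by 6.75, and Hmox1 by 2.17. Pdia4 was lower by 1.22, Dnajb14 by 1.26, Bag4 by 1.17, Bag1 by 0.78, and both Pdia3 and Pfdn5 by 0.74. Tomm70a, a receptor of the mitochondrial import pore, was higher by 0.60 (limma adjusted p = 0.0283), and that call ended without UT replicate 3 or any LPS + BMS library (up to 0.112).

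For the 3 chaperone genes with the widest range of group means, the nearest profiles over the 9 libraries were found by the root mean square difference of centred log2 values. Hsp90aa1 was matched most closely, by Hipk2 (0.059), Ppp2ca (0.073) and Dmtf1 (0.093). Hsf1 was nearest to Gm18889 (0.233), Egln1 (0.239) and Tex30 (0.274), and Hspa1a to Gm7331 (0.275), Sec13 (0.320) and Rnf114 (0.328). These distances share the libraries and their depth and describe likeness only.

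Some markers of other cells and of handling moved with LPS too. The summed CPM of 9 macrophage markers was 8198 to 8821 in UT cells, 4078 to 4948 with LPS and 4828 to 4932 with LPS + BMS, with Lyz2 the most abundant. Of 11 neutrophil markers 3 had rows, and their sum was 8.84 to 31.4, 41.3 to 69.0 and 184 to 272 CPM, mostly S100a8. With LPS S100a8 rose by 2.17 and Csf3r by 2.70, while S100a9 at -0.43 was not called. Of the lymphocyte (9 listed), dendritic cell (7) and mast cell (6) lists 1 gene each had a row, Lck, Itgax and Hdc, of the stromal list 4 of 7, with Sparc the most abundant, and of the erythroid list 0 of 6. With LPS, Hdc rose by 5.56, Itgax by 2.23 and the stromal gene Pdgfrb by 5.36, while Lck was not called. The other stromal genes with rows were not called either, Col1a1 at -0.49, Col1a2 at 0.78 and Sparc at 0.50. With LPS + BMS against LPS, Hdc fell by 0.70 (limma adjusted p = 0.0319) and Itgax by 1.68 (0.0059), while S100a8 rose by 2.29 (0.0038). The stromal sum was 6.09 to 14.0, 13.7 to 23.7 and 6.19 to 13.5 CPM in the UT, LPS and LPS + BMS libraries. In the same order Hdc was at 2.21 to 2.59, 106 to 118 and 60.5 to 77.2 CPM, Itgax at 3.04 to 4.19, 13.5 to 22.5 and 4.77 to 5.36, and Lck at 1.27 to 1.59, 1.56 to 7.53 and 0.651 to 3.17. Of 13 immediate early genes, which can mark handling, 12 had rows, and their sum was 1977 to 2249, 4259 to 4352 and 4242 to 4602 CPM, with Klf6 the most abundant. The sum hides opposite changes, since 8 rose and 4 fell with LPS, beside 21.5% and 25.4% of all tested genes. The 4 were Fos (-3.69), Atf3 (-1.78), Jun (-1.43) and Egr1 (-0.66). With LPS + BMS against LPS, Jun rose by 0.64 (limma adjusted p = 0.0268) and the other 11 were not called. Mitochondrially encoded RNAs, led by mt-Nd4, summed to 3999 to 5041, 2756 to 3686 and 3675 to 4077 CPM. Their part in the chaperone results was not tested.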

How the data were processed

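Poly(A) RNA of 9 libraries was measured at transcript 3′ ends (QuantSeq, 100 ng RNA, 16 PCR cycles, per the labels' protocols). Per the submitters' processing notes, GRCm38 (mm10), edgeR, limma, MultiQC, featureCounts 1.5.1 and STAR 2.5.2b were used, with no roles given. The deposited scores are CPM on a log2 scale after quantile normalisation over the 9 libraries, as read from the values (their powers of 2 sum to 987472 to 987498). A shift of most transcripts in the same direction is removed by such scaling. No raw counts were used here, and depths were estimated from the value steps, 1.83 to 5.05 M (mega) reads.

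Genes at log2 CPM of at least 0 in 3 libraries were kept (12196, 8 removed). A mean per group was fitted over all 9 libraries in limma 3.58.1 (R 4.3.3, mean trend, two-sided, Benjamini-Hochberg adjustment). The steps were tested on simulated data. Single values were compared by exact permutation (scipy 1.17.1). Coordinates are those of GENCODE M21 and promoter windows those of RefSeq (GRCm38.p6). The chaperones, the gene lists and the paired differences were chosen with earlier results of these data known. Network genes named are up to 2 called genes with the smallest p per list and comparison and every called gene of LPS + BMS minus LPS. The other TRiC and prefoldin genes, the markers other than the most abundant of each list, Cacybp, Fkbp4, Hspa5, Hsf2, Hsbp1, Hspb11, Chordc1, Bag1, Bag3, Dnajb4 and Dedd2 were named after their values were seen. No block was used in the main fit, since the labels do not say whether same-numbered libraries were prepared together. The 9 correlations of their deviations ran from -0.297 to 0.165 and cannot settle it. Alternatives were a replicate block, other filters and scalings, no trend, only the groups compared, a 2-fold minimum, library weights and the removal of each library in turn.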

Additional observations from a re-analysis of the deposited data

How the results depend on the processing

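LPS minus UT for Hspa8 and Hsp90aa1 stayed called in all 18 alternatives other than the 2-fold minimum, which neither passed, and the chaperone count of LPS + BMS minus LPS stayed at 0 in each. With a 2-fold minimum the calls were 3309, 119 and 3320 over all genes, 0, 0 and 1 among the chaperones and 13, 1 and 13 in the network for LPS minus UT, LPS + BMS minus LPS and LPS + BMS minus UT. Library weights gave 8 chaperones with LPS, and 814 genes and 7 network genes for LPS + BMS minus LPS. For the last comparison centring on ribosomal protein genes gave 162 genes (53 higher, 109 lower) and 1 network gene, and no mean trend gave 99 and 1. Leaving out each library gave 2 to 5 chaperones with LPS, and 62 to 317 genes and 1 to 3 network genes for LPS + BMS minus LPS. The cause was not tested.

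Signs that turned all belong to LPS + BMS minus LPS. They were Hspa1a at -0.095 and -0.0444 (without LPS replicate 1 and LPS + BMS replicate 2), Hspa8 at -0.0513 (ribosomal centring) and -0.0398 (without LPS replicate 1), Hsph1 at 0.0036 and Hsf1 at -0.298 (library weights), Hsf1 at -0.191 (without LPS replicate 1), Dnajb1 at -0.0015 (without LPS replicate 2) and Hsp90ab1 at -0.0058 (ribosomal centring), -0.0101 and -0.0349 (without LPS replicate 2 and LPS + BMS replicate 1). Over all single libraries left out these differences ran from -0.095 to 0.645 for Hspa1a, -0.0398 to 0.103 for Hspa8, -0.0015 to 0.260 for Dnajb1, -0.0349 to 0.230 for Hsp90ab1 and -0.191 to 0.737 for Hsf1. None of these was called in any alternative. Library weights also called Hspa1a, Hspd1, Hspe1 and Hsf1 with LPS, and a filter of 10 CPM called Hspe1 (adjusted p = 0.0388).

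The labels do not say whether same-numbered libraries were prepared together, and the correlations of their deviations cannot settle it. With a replicate block the calls were 5531, 208 and 5558 over all genes, 5, 0 and 5 among the chaperones and 48, 2 and 45 in the network. It called Hsf1 with LPS (limma adjusted p = 0.0471) and ended the Pdia4 call (0.0680). Depth limits Hspa1a and Hsf1, which rest on about 1 to 18 reads per library, and quantile normalisation hides any shift common to most transcripts.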
